A study of Sus scrofa with 30 samples.

Results

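The hormone-driven paracrine axis of the sow mammary gland was followed through 5 genes, chosen by name for their roles: the receptors for estrogen and progesterone (ESR1 and PGR), the ligand RANKL (TNFSF11), its receptor RANK (TNFRSF11A) and the secreted ligand WNT4. They were 5 of the 14958 reference genes in a table of 61773 transcripts, which held 7 of their reference transcripts. A gene level is the sum of the gene's reference transcripts in the table.

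In the mammary epithelium, estrogen and progesterone act through receptors carried by a subset of luminal cells. These sensor cells answer progesterone by releasing RANKL and WNT4, and neighbouring cells that carry RANK or WNT receptors respond by dividing and by branching. Osteoprotegerin (TNFRSF11B) is a soluble decoy that binds RANKL and keeps it from RANK. Progesterone is high through pregnancy and falls around birth, and the gland turns from growth to milk secretion at that time.

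Bulk mammary parenchyma had been sampled from 30 multiparous Danish Landrace × Yorkshire sows, 6 at each of 5 stages, and sequenced as RNA. The study describes these sows as half-siblings. Gestation was sampled at day 70 (MG) and day 110 (LG), lactation at day 2 (EL) and day 10 (PL) after birth, and the weaned gland at day 2 after weaning (W2), and the labels name no treatment. All samples came from the third left gland. In bulk tissue, fewer cells of a type and less RNA per cell cannot be told apart.

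The labels and the samples themselves limit every value. Samples titled MG carry the stage name early lactation in another label field and those titled EL the name mid-gestation. The titles were followed, as in the study, and taking the other field would exchange MG and EL throughout. Summed milk genes, which rise toward lactation, were 11906 to 29461 units in the samples titled MG, below the 33885 to 59296 of LG, and 63857 to 120785 in those titled EL, above it, the order that the titles give. In each stage 3 of the 6 samples were near-identical to each other (median difference of a pair at most 1.85%, against at least 19.6% between the other 3), and their mean lay within 0.741% of the mean of the other 3. They were not counted, which left 3 samples per stage and 15 in all. In the 15 samples not counted, TNFRSF11A lay at most 1.02 units from the stage mean of the counted ones, WNT4 at most 1.33 and TNFSF11 at most 1.21, while ESR1 and PGR differed by up to 0.846 and 0.758 units, more than their mean levels.

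The values are called units here. They are named FPKM by the authors but the total of a sample lies between 997480 and 1002643, which is a property of TPM. The values give no reads per transcript, and read counts were not used here. Precision was therefore judged by how far the samples of a stage spread.

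Over the 15 counted samples the genes of the axis spanned a wide range of levels. TNFRSF11A had the highest mean level, 28.6 units, and 83.6% of the reference genes had a lower one. TNFSF11 followed with 9.05 units (59.1% lower) and WNT4 with 8.52 units (57.5% lower). ESR1 (0.507 units, 7.61% lower) and PGR (0.429 units, 5.46% lower) were among the genes with the lowest levels. The mean levels of both ligands and of RANK, as summed here, were above those of the hormone receptors that act upstream of them. The sums differ in coverage. The table held 1 of 15 reference transcripts of ESR1 and 1 of 2 of PGR, against 2 of 3 of WNT4 and all of TNFSF11 and TNFRSF11A. Assembled transcripts were added to no gene, and whether the sums of ESR1 and PGR are partial was not tested. The plot of gene levels by stage shows all 15 values of each gene.

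**Figure D1:**
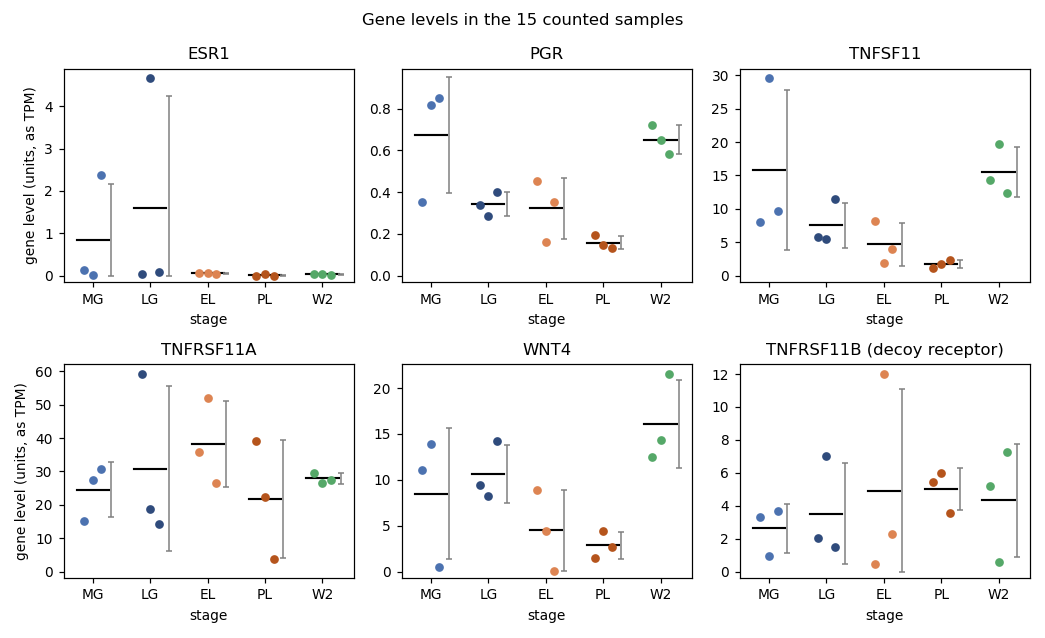
Gene levels in units (as TPM, linear axes) by stage for ESR1, PGR, TNFSF11, TNFRSF11A, WNT4 and the decoy receptor TNFRSF11B. Points are the 3 counted samples of a stage, black lines their mean, and grey bars the SD on either side (stopped at 0). TNFSF11 and WNT4 are high in W2 and low in PL, while TNFRSF11A holds overlapping values in all 5 stages.

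ESR1, which encodes estrogen receptor alpha, lies on chromosome 1 of Sscrofa11.1 (14217032 to 14604906), and 1 of its 15 reference transcripts, XM_021083070.1, was in the table. Its level was 0.141, 0.0205 and 2.37 units in the MG samples. It was 0.0327, 4.66 and 0.0970 units in the LG samples. Only MG replicate 6 and LG replicate 3 stood above 0.2 units among the 15 counted samples. The EL samples held 0.0516, 0.0735 and 0.0296 units, the W2 samples 0.0455, 0.0387 and 0.0190 units, and PL held 0.0268 units in 1 sample and 0 in the other 2. Gestation exceeded lactation in the mean (1.22 ± 1.92 against 0.0302 ± 0.0289 units, SD, n = 6 each), with a log2 difference of -1.03 ± 0.55 (SE) for lactation minus gestation that did not pass the test (limma adjusted p = 0.194). The exact permutation test of this single comparison gave p = 0.0390 (two-sided). The mean of gestation was set by 2 of its 6 samples, and 2 of the other 4 lay within the lactation range of 0 to 0.0735 units. No other comparison of ESR1 passed.

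PGR, the progesterone receptor, lies on chromosome 9 (32035684 to 32129776) and was represented by NM_001166488.1, 1 of its 2 reference transcripts. Its level was 0.354, 0.815 and 0.850 units in MG, and 0.338, 0.285 and 0.401 units in LG. It was 0.453, 0.163 and 0.351 units in EL, and 0.195, 0.149 and 0.132 units in PL. After weaning it was 0.720, 0.650 and 0.584 units. The order of the stage means ran MG, W2, LG, EL, PL, and only W2 and LG, neighbours in that order, had samples that did not overlap. W2 exceeded PL by 0.81 ± 0.26 on the log2 scale (4.11 times the mean level, limma adjusted p = 0.0301) and exceeded lactation by 0.65 ± 0.22 (2.71 times, limma adjusted p = 0.0442, exact permutation p = 0.0119, the smallest that 3 against 6 samples allow). All 3 W2 samples lay above all 6 lactation samples. Lactation lay below gestation by 0.43 on the log2 scale without passing (limma adjusted p = 0.109, exact permutation p = 0.0325), and it passed without MG replicate 1 (limma adjusted p = 0.0455).

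On log2(units + 0.5) the rise of PGR was close in size to the shift of the table as a whole. The 0.5 units added exceed the mean level of PGR, 0.429 units. This scale therefore shrinks its difference, which was 4.11 times in mean level for W2 against PL, and the likeness in size holds for this scale. The median log2 difference over all 26019 features tested (14958 reference genes and 11061 assembled loci) was 0.68 for W2 minus PL, 0.57 for W2 minus lactation and -0.40 for lactation minus gestation, and between -0.22 and -0.11 in the other 3 comparisons. PGR exceeded that median by 0.13 in W2 against PL and by 0.08 in W2 against lactation. With samples scaled by the median ratio of abundant genes, the log2 difference for W2 minus PL was 0.51 (limma adjusted p = 0.179). The call was also lost without W2 replicate 2 or 3 (limma adjusted p = 0.0641 and 0.0552), and the one against lactation without EL replicate 4 or 6 or any W2 replicate (limma adjusted p from 0.0565 to 0.102). In the samples not counted, PGR was 1.31, 1.41 and 0.404 units in W2 and 0, 0.186 and 0.670 units in PL, so that these overlapped.

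TNFSF11, which encodes RANKL, lies on chromosome 11 (24468011 to 24505421) and was measured through its 1 reference transcript, XM_001925694.6. Its level was 8.06, 29.6 and 9.68 units in MG. It was 5.71, 5.54 and 11.4 units in LG, and 8.20, 1.85 and 4.06 units in EL. In PL it was 1.12, 1.67 and 2.34 units, and in W2 it was 14.4, 19.7 and 12.4 units. The mean of MG was 15.8 ± 12.0 units and that of LG 7.56 ± 3.35, EL followed with 4.70 ± 3.22 and PL with 1.71 ± 0.611, and the W2 mean was 15.5 ± 3.79 (SD, n = 3). Neighbouring stages from MG to PL overlapped, and none of the 3 steps between them passed the test (limma adjusted p = 1, 0.799 and 0.302).

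The step at weaning passed. W2 exceeded PL in TNFSF11 by 2.87 ± 0.53 on the log2 scale (SE, limma adjusted p = 0.00212), which is 9.07 times the mean level, and the lowest W2 sample stood at 12.4 units against 2.34 for the highest PL sample. An exact permutation test of 3 against 3 samples cannot go below p = 0.1, which is the value it gave. Against all 6 lactation samples the difference was 2.33 ± 0.46 (4.84 times the mean level, limma adjusted p = 0.00491, exact permutation p = 0.0119), again with no overlap. TNFSF11 was also lower in lactation than in gestation, with 3.21 ± 2.64 against 11.7 ± 9.06 units (SD, n = 6 each), a log2 difference of -1.72 ± 0.38 (limma adjusted p = 0.00972, exact permutation p = 0.0108). There EL replicate 3, at 8.20 units, reached into the gestation range of 5.54 to 29.6 units.

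These differences of TNFSF11 were larger than the shift of all features, by 2.19 in W2 against PL, 1.76 in W2 against lactation and -1.31 in lactation against gestation (log2). After median ratio scaling they were 2.24, 1.83 and -1.37, and all 3 passed (limma adjusted p = 0.00897, 0.0212 and 0.0293), where 13.1%, 6.96% and 7.41% of all features were called. All 3 also passed when any 1 of the 15 samples was left out (limma adjusted p at most 0.0298). Relative to the summed luminal keratins KRT8, KRT18 and KRT19 of the same sample the differences kept their direction, at 2.13, 1.43 and -1.23, and did not pass (limma adjusted p = 0.0693, 0.207 and 0.239). With that scaling 2.46%, 1.33% and 0.734% of all features were called.

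**Figure D2:**
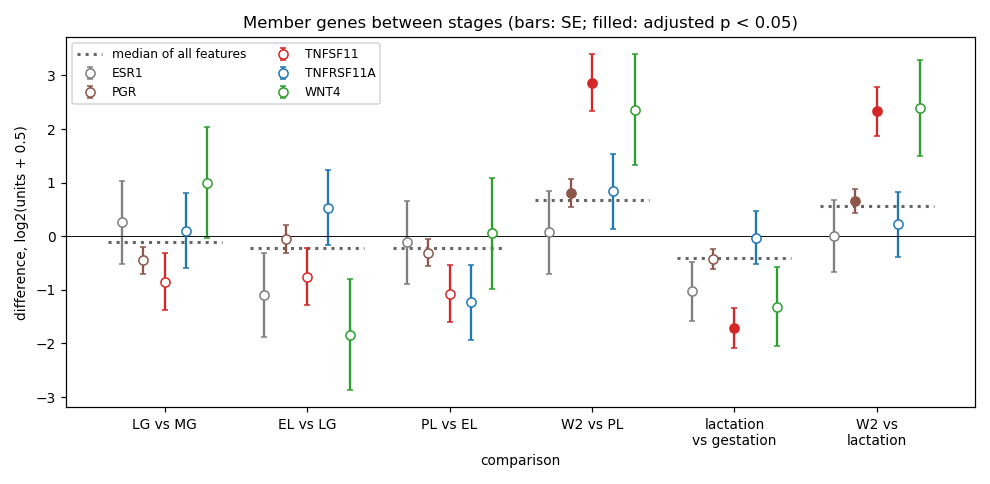
Log2 differences of the 5 genes in 6 comparisons, on log2(units + 0.5), with bars for the SE. Filled points had a limma adjusted p below 0.05 and dotted lines mark the median of all features. TNFSF11 lies clear of the dotted line in the comparisons of W2 and of lactation with gestation, and PGR lies beside it.

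WNT4, a secreted ligand that acts downstream of the progesterone receptor, lies on chromosome 6 (80110238 to 80138165), and 2 of its 3 reference transcripts were in the table. Its gene level was 11.11, 13.9 and 0.454 units in MG, and 9.43, 8.23 and 14.2 units in LG. It was 8.92, 4.42 and 0.101 units in EL, and 1.47, 4.41 and 2.71 units in PL. All 3 W2 samples, at 12.4, 14.4 and 21.5 units, exceeded all 6 lactation samples. MG replicate 6 and EL replicate 6 stood far below the other samples of their stages. W2 exceeded PL by 2.36 ± 1.04 on the log2 scale (5.62 times the mean level) and exceeded lactation by 2.39 ± 0.90 (4.39 times), and neither passed the test (limma adjusted p = 0.0981 and 0.0641). The exact permutation test gave p = 0.0238 for W2 against lactation. Without MG replicate 6 both passed (limma adjusted p = 0.0419 and 0.0273). That sample is in neither comparison, and the differences stayed at 2.36 and 2.39. Their SE, from the spread shared by all stages, fell to 0.79 and 0.68. Without EL replicate 3 the difference of W2 against lactation passed (limma adjusted p = 0.0350). Lactation minus gestation was -1.31 ± 0.73 (limma adjusted p = 0.214).

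The 2 transcripts of WNT4 were listed with different patterns over the stages, a difference that was not itself tested. XM_005656037.3, which held more of the gene in all counted samples but W2 replicate 3, was 6.01, 10.7 and 0.309 units in MG, and 7.06, 7.75 and 12.7 units in LG. It was 8.92, 4.42 and 0.101 units in EL, 1.47, 4.41 and 2.71 units in PL, and 9.95, 3.55 and 12.7 units in W2. Its difference between W2 and PL was 1.39 ± 1.03 on the log2 scale (limma adjusted p = 0.450 over all transcripts). XM_013988775.2 was 5.11, 3.26 and 0.146 units in MG, and 2.37, 0.488 and 1.50 units in LG. It was listed at 0 in all 6 lactation samples, and it was 2.49, 10.8 and 8.82 units in W2. Of the 61773 transcripts 7 (0.0113%) shared this pattern, at 0 in the 6 counted lactation samples and above 0 in the other 9.

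At the level of single transcripts XM_013988775.2 passed in W2 against PL (limma adjusted p = 0.0101) and in W2 against lactation (limma adjusted p = 0.0107), and did not in lactation against gestation (limma adjusted p = 0.0609). No fold is given against values listed at 0. It and the TNFSF11 transcript (limma adjusted p = 0.00850 and 0.0209) were the 2 of 7 transcripts called in the comparisons with W2, where 7.13% of all transcripts were called against PL and 3.76% against lactation. The TNFSF11 transcript alone was called in lactation against gestation (limma adjusted p = 0.0368), where 2.48% of all transcripts were. The share of WNT4 in XM_013988775.2 was 33.8% ± 11.4 in MG, 13.9% ± 10.0 in LG, 0 in EL and PL, and 45.4% ± 27.9 in W2 (SD, n = 3). In the lactation samples not counted this transcript was between 0 and 1.14 units, so that it was not at 0 in all of them, and whether a listed 0 is a failed estimate was not tested.

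**Figure D3:**
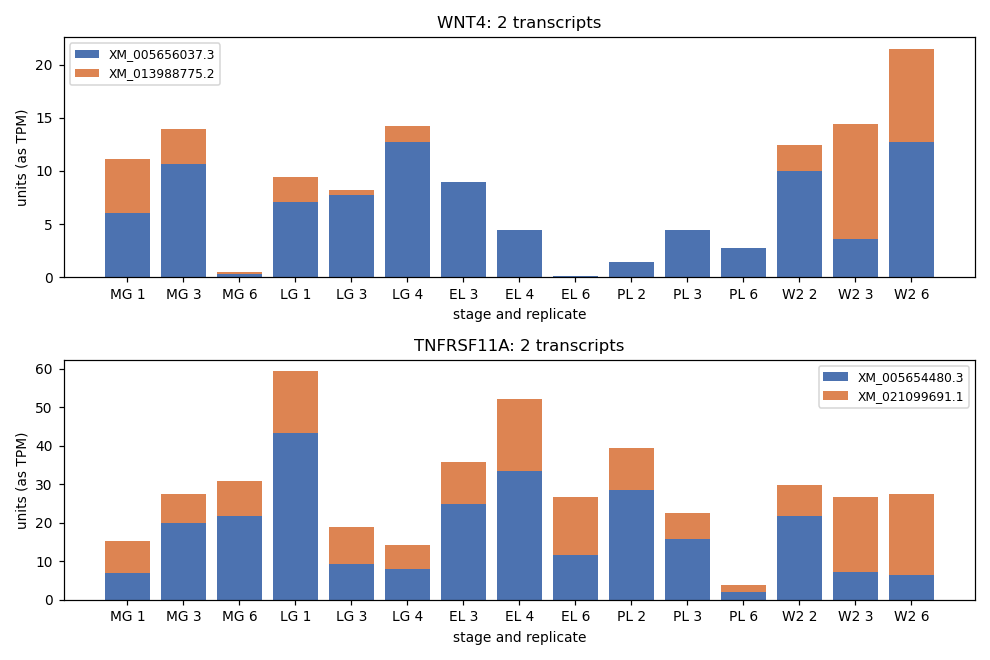
Units (as TPM, bars from 0) of the 2 reference transcripts of WNT4 (upper panel) and of TNFRSF11A (lower panel) in each counted sample, stacked to the gene level. The WNT4 transcript XM_013988775.2 is seen in the 6 gestation and the 3 W2 samples and is at 0 in EL and PL, while both TNFRSF11A transcripts are seen in every sample.

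TNFRSF11A, which encodes RANK, lies on chromosome 1 (159128039 to 159187476) and was measured through both of its reference transcripts. Its level was 15.1, 27.5 and 30.7 units in MG, and 59.3, 18.8 and 14.3 units in LG. It was 35.7, 52.1 and 26.7 units in EL, and 39.3, 22.5 and 3.86 units in PL. The W2 samples lay close together at 29.7, 26.5 and 27.5 units. The stage means were ordered EL (38.2), LG (30.8), W2 (27.9), MG (24.5) and PL (21.9 units), and every neighbouring pair overlapped. No comparison passed the test. The largest differences were -1.23 ± 0.70 for PL minus EL (limma adjusted p = 0.376) and 0.84 ± 0.70 for W2 minus PL (limma adjusted p = 0.377), and without PL replicate 6, the lowest sample, they were -0.30 and -0.09. Gestation and lactation stood at 27.6 ± 16.9 and 30.0 ± 16.5 units (SD, n = 6 each). The log2 difference between them was -0.03 ± 0.49, with a standard error far larger than the difference, so that a change in either direction is not excluded by it.

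Both RANK transcripts were listed above 0 in every counted sample. XM_005654480.3 was 6.83, 19.9 and 21.7 units in MG, and 43.3, 9.36 and 8.02 units in LG. It was 24.9, 33.5 and 11.6 units in EL and 28.4, 15.7 and 1.95 units in PL, and the W2 samples held 21.7, 7.25 and 6.42 units. It thus ranged widely within the stages. XM_021099691.1 was 8.31, 7.62 and 9.02 units in MG, and 16.0, 9.42 and 6.29 units in LG. It was 10.8, 18.7 and 15.0 units in EL and 10.8, 6.72 and 1.91 units in PL, and the W2 samples held 8.03, 19.3 and 21.1 units. The mean share of XM_021099691.1 was between 35.7% and 40.8% from MG to PL and 58.8% ± 27.6 in W2, where 2 of the 3 samples held it in the larger part. Neither transcript passed in any comparison.

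Counted together, 2 of the 5 genes (PGR and TNFSF11) were called higher in W2 than in PL at an adjusted p below 0.05, where 32.8% of all features were called. The same 2 were called in W2 against lactation, where 28.3% of all features were. TNFSF11 alone was called lower in lactation than in gestation, where 20.8% of all features were. None of the 5 was called in LG against MG, EL against LG or PL against EL, where 0.0115%, 0.0154% and 4.62% of all features were called, and none had an unadjusted p below 0.05 there. With the further condition of the study, an absolute log2 difference of at least 2, TNFSF11 was the 1 gene called in each of the comparisons with W2, where 5.22% of all features were called against PL and 2.11% against lactation. With 2 of 5 called in each comparison with W2, the counts were near the background.

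PGR, TNFSF11 and WNT4 were higher in every W2 sample than in every PL sample, as were 40.6% of all features, and higher than in every lactation sample, as were 26.7%. None of the 5 was lower in every lactation sample than in every gestation sample (5.83% of all features). ESR1 was lower in every PL than in every EL sample (15.8% of all features), with all 6 values below 0.08 units.

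TNFRSF11B, the decoy receptor on chromosome 4 (19850212 to 19879132), was 3.30, 0.918 and 3.68 units in MG, and 2.06, 7.05 and 1.47 units in LG. It was 0.443, 12.0 and 2.25 units in EL, 5.46, 6.00 and 3.55 units in PL, and 5.17, 0.559 and 7.28 units in W2. Its stages overlapped throughout and no comparison passed (W2 minus PL was -0.58 ± 0.93, limma adjusted p = 0.666). The balance of ligand and decoy was followed as the log2 ratio of TNFSF11 to TNFRSF11B, with 0.5 units added to each. The mean log2 ratio was 2.29 for MG and 1.19 for LG, 0.51 for EL and -1.33 for PL, and 2.13 for W2. In PL all 3 samples were below 0, at -1.88, -1.59 and -0.51, so that the level of the decoy exceeded that of the ligand there, and in W2 all 3 were above it (1.39, 4.26 and 0.73). Lactation lay 2.15 below gestation (-0.41 ± 2.09 against 1.74 ± 1.60, SD, n = 6 each), which the exact permutation test did not separate (two-sided p = 0.0779). Without EL replicate 3, whose ratio of 3.21 was the highest of lactation, the difference was -2.87 (exact permutation p = 0.0130). MG replicate 3 (4.41), LG replicate 4 (2.60) and W2 replicate 3 (4.26) also had the highest ratio of their stages, while PL replicate 3 (-1.59) did not. EL replicate 3 tended to deviate together with these samples over the table, as given below. The permutations took the samples as independent, so a spread shared by such samples counts as error in them. Leaving out any other of the 12 samples gave -2.56 to -1.61, with exact permutation p from 0.0541 to 0.154.

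Across the 15 counted samples PGR and TNFSF11 varied together, with Pearson's r = 0.90 and Spearman's rho = 0.89 on log2(units + 0.5) (permutation p = 2e-05 for both, Benjamini-Hochberg adjusted 0.0002 over the 10 pairs of the 5 genes). Without MG replicates 3 and 6, the samples farthest from the median of PGR, r was 0.93. With the stage means removed r was 0.64, which was not tested, and after median ratio scaling it was 0.80. The permutations moved samples freely between the 5 stages. The permutation p-values of these pairs thus take in differences between stages and do not measure covariation among sows of a stage. TNFSF11 and WNT4 had r = 0.55 (permutation p = 0.0321, adjusted 0.161) and rho = 0.75 (permutation p = 0.00164, adjusted 0.00820), and r = 0.51 without PL replicates 2 and 3. After the stage means were removed, r was 0.34 for that pair. The other 8 pairs, all those of ESR1 and TNFRSF11A among them, had an absolute r of at most 0.25 and an adjusted p of 0.977 or more for Pearson's r.

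**Figure D4:**
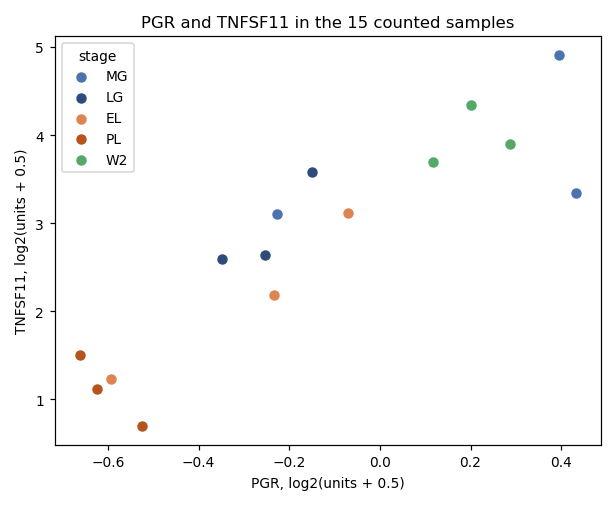
TNFSF11 against PGR, both as log2(units + 0.5), with 1 point per counted sample coloured by stage. The PL samples lie at the lower left, the W2 samples and MG replicate 3 at the upper right, and r over the 15 points is 0.90.

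A close match to TNFSF11 was common in the table. Of 8156 reference genes with a mean of at least 5 units, 2436 (29.9%) had r above 0.8 with it, and 271 (3.32%) had after median ratio scaling. For PGR these counts were 829 of 8157 (10.2%) and 54 (0.662%). The 3 genes most like TNFSF11 over the 15 samples were LINGO1 (r = 0.98), a neuronal membrane protein, SMS (r = 0.97), the spermine synthase, and HPRT1 (r = 0.96), a purine salvage enzyme. The mean level of LINGO1 was 8.40 units for MG and 6.39 for LG, 4.03 for EL and 2.56 for PL, and 9.26 for W2, the order of TNFSF11 but for MG and W2. The genes most like WNT4 were LOC100520329 (r = 0.88), DYNLL2 (r = 0.88), a dynein light chain, and KLF6 (r = 0.85), a zinc finger factor. Those most like TNFRSF11A reached lower values, TMEM254 and TMEM125 (r = 0.78 each) and DAXX (r = 0.76), and no gene had r above 0.8 with it, or 5 after median ratio scaling.

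The genes around the axis were taken from 7 lists named for their roles, and their counts are read against the 32.8% of all features called in W2 against PL. Of 14 measured partners of the hormone-sensing luminal cell, 7 rose in W2 against PL and none fell, with a median log2 difference of 1.19 against 0.68 for all features. FOXA1, the pioneer factor that opens chromatin for the estrogen receptor, rose from 0.241 ± 0.106 units in PL to 2.50 ± 0.733 in W2 (log2 difference 2.00, limma adjusted p = 0.00206). PGRMC1, a membrane protein linked to progesterone binding, rose from 144 ± 34.4 to 441 ± 24.1 units (1.64, limma adjusted p = 0.00179). TBX3, a transcription factor of luminal lineage cells, rose by 1.54 (limma adjusted p = 0.00769), and NRIP1, a corepressor of nuclear receptors, by 1.48 (limma adjusted p = 0.0143). Against gestation 5 of the 14 fell in lactation and none rose, where 20.8% of all features were called. After median ratio scaling 2 of the 14 were called in W2 against PL, FOXA1 and PGRMC1 (13.1% of all features), and none in lactation against gestation (7.41%). Relative to luminal keratins none was called in either comparison (2.46% and 0.734% of all features).

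Of 12 estrogen receptor target genes 3 rose in W2 against PL and none fell (median 1.10). They were CCND1, the cyclin that starts the cell cycle (7.04 ± 1.65 to 35.6 ± 9.34 units, log2 difference 2.26, limma adjusted p = 0.000556), the chemokine CXCL12 (1.38, limma adjusted p = 0.0334) and the IGF-binding protein IGFBP4 (0.81, limma adjusted p = 0.0369). CCND1 and IGFBP4 were the 2 that fell in lactation against gestation, where 20.8% of all features were called. After median ratio scaling CCND1 was the 1 target called in each of these comparisons (13.1% and 7.41% of all features). Relative to luminal keratins 0 of the 12 were called in either (2.46% and 0.734% of all features). Enzymes of local steroid metabolism moved in both directions. Of 10 measured, 2 rose in W2 against PL and 1 fell, with a median of 0.48, below that of all features. HSD11B2, which inactivates cortisol, rose from 0.936 ± 1.10 to 4.73 ± 1.06 units (limma adjusted p = 0.00778), HSD17B4, a peroxisomal enzyme that can oxidise estradiol, rose by 0.72 (limma adjusted p = 0.0379), and HSD11B1, which regenerates cortisol, fell from 255 ± 161 to 62.0 ± 25.5 units (limma adjusted p = 0.0326). HSD17B8 was the 1 enzyme lower in lactation than in gestation (limma adjusted p = 0.0289), where 20.8% of all features were called. AKR1C1 and HSD11B2 were the 2 higher in W2 than in lactation (28.3% of all features). After median ratio scaling HSD11B2 stayed higher and HSD11B1 lower in W2 than in PL (13.1% of all features). With that scaling HSD11B1 was the 1 enzyme called in W2 against lactation, lower in W2 (6.96% of all features). None was called in lactation against gestation (7.41%).

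The list named for targets of the progesterone receptor and RANK holds regulators of cell division and cell fate. Some, such as CCNB1 and TOP2A, are genes of dividing cells in general. Whether any gene of the list answered either receptor here was not tested. Of 13 measured, 7 rose in W2 against PL and none fell (median 1.38), where 32.8% of all features were called. In lactation against gestation 5 fell with none rising (median -0.77 against -0.40 for all features), where 20.8% of all features were called. CCNB1 and TOP2A, which act in dividing cells, rose from 2.43 ± 1.27 to 23.5 ± 7.79 units and from 2.19 ± 0.923 to 22.1 ± 7.51 units (log2 differences 3.09 and 3.07, limma adjusted p = 0.000116 and 7.12e-05). ID4, a regulator of luminal and basal fate, rose from 7.60 ± 1.65 to 41.6 ± 12.8 units (limma adjusted p = 0.000100). TOP2A, CCNB1 and ID4 were also the 3 that fell from EL to PL (limma adjusted p = 0.00152, 0.00253 and 0.0242), where 4.62% of all features were called. After median ratio scaling 5 of the 13 were called higher in W2 than in PL and 4 lower in lactation than in gestation, CCNB1 and TOP2A in both. The shares of all features were 13.1% and 7.41%. Relative to luminal keratins 1 and 0 were, against 2.46% and 0.734%. CCND1 and CXCL12 stand in this list and in that of the estrogen receptor, AREG and LGR4 also stand in 2 lists each, and such genes are counted in both.

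RANK signals inside the cell through TRAF adaptors and NF-κB. Of 12 genes measured, the decoy receptor among them, 4 rose in W2 against PL and none fell, and the median of 0.58 was below that of all features. TRAF2, an adaptor of TNF receptors and 1 of the 4, was listed at 0 in LG replicate 4 and in the 3 PL samples, at 15.1, 19.3 and 13.9 units in EL and at 7.77, 28.7 and 35.2 units in W2. RELA, a subunit of NF-κB, was listed at 0 in PL replicate 3, with 1.45 and 19.2 units in the other PL samples and 27.6, 31.0 and 29.3 units in W2 (limma adjusted p = 0.0116). A listed 0 in values without reads can be a failed estimate or reads given to an assembled transcript with no gene name, which was not tested, and these calls rest on such values. The kinases IKBKB and CHUK rose by 1.33 and 0.58 (limma adjusted p = 0.0236 and 0.0321), against a median of 0.68 for all features. None of the 12 was called in lactation against gestation (20.8% of all features). After median ratio scaling TRAF2 was the 1 gene called in W2 against PL (13.1% of all features).

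Receptors and targets of WNT signalling rose after weaning in 9 of 20 measured genes and fell in none (median 1.21). AXIN2, a direct target and feedback inhibitor of the pathway, was 6.45 ± 2.12 units in MG and 4.94 ± 1.90 in LG, against 0.545 ± 0.496 in EL and 0.198 ± 0.284 in PL, and stood at 10.2 ± 0.551 in W2 (SD, n = 3). It rose by 4.01 ± 0.39 in W2 against PL (limma adjusted p = 7.66e-05) and fell by 2.88 in lactation against gestation (limma adjusted p = 0.000282). RSPO1, a secreted enhancer of WNT signalling, was 52.4 ± 7.14 units in MG and 52.7 ± 9.17 in LG, 39.5 ± 19.6 in EL against 3.52 ± 1.60 in PL, and 50.0 ± 3.55 in W2. It fell from EL to PL by 3.30 (limma adjusted p = 0.000553) and rose by 3.74 in W2 against PL (limma adjusted p = 6.36e-05). The receptors FZD1 and FZD2 rose by 2.61 and 1.88 (limma adjusted p = 0.000548 and 0.00203). In lactation against gestation 7 of the 20 fell, AXIN2, RSPO1, FZD1 and LGR6 by the largest steps, and none rose (20.8% of all features were called). After median ratio scaling 6 of the 20 were called higher in W2 than in PL and 4 lower in lactation than in gestation, AXIN2 and RSPO1 in both (13.1% and 7.41% of all features). Relative to luminal keratins 3 of the 20 were called higher in W2 and 2 lower in lactation (2.46% and 0.734% of all features).

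Of the 7 other WNT ligands measured, WNT6 (log2 difference 1.46) and WNT5A (0.87) rose in W2 against PL (limma adjusted p = 0.0338 and 0.0332). WNT2B fell from 1.83 ± 1.75 to 0.268 ± 0.0815 units (limma adjusted p = 0.0353). It was the 1 ligand higher in lactation than in gestation (limma adjusted p = 0.0326), where 20.8% of all features were called. After median ratio scaling WNT2B was the 1 ligand called in W2 against PL, again lower in W2 (13.1% of all features). None was called in lactation against gestation with that scaling (7.41%). No gene of the 7 lists was called in LG against MG or EL against LG. No entry of the table matched 18 of the listed genes, among them PRLR, CALCA, LGR5 and CYP19A1, and these were not analysed here. TNFSF11, GATA3, NFKB1, CTNNB1, TOP2A, CCNB1, RELA and IKBKB are among the genes that the study also singled out on these samples, so their values are not independent evidence.

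**Figure D5:**
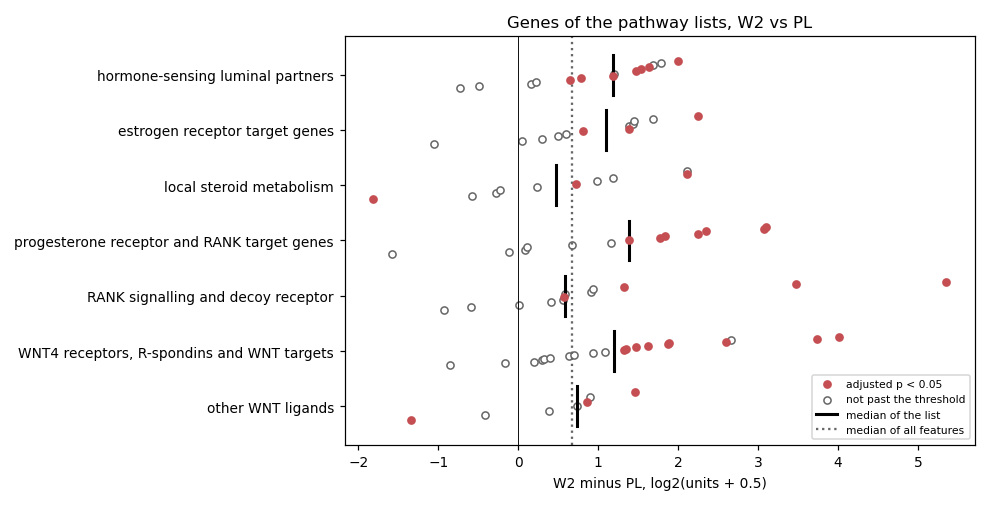
Log2 difference of W2 minus PL, on log2(units + 0.5), for each measured gene of the 7 lists. Red points had a limma adjusted p below 0.05, black lines are the median of a list and the dotted line is the median of all features, 0.68. The lists of progesterone receptor and RANK targets, of luminal partners and of WNT receptors and targets have medians above the dotted line, from 1.19 to 1.38.

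Markers of several cell types in the tissue were also called in W2 against PL, while no basal or myoepithelial marker was. The counts of called markers are read against the 32.8% of all features called in W2 against PL, 7901 higher and 644 lower. Calls of the markers after other scalings were not counted. The summed level of 6 milk genes (CSN1S1, CSN1S2, CSN2, CSN3, LALBA and WAP) was given above for MG, LG and EL. It was 91237 to 285004 units in PL and 5781 to 8140 in W2, and 6 of the 6 fell in W2 against PL. All values of a sample add up to about the same total, so each value is a share of it. PL replicate 2 stood apart, with a median ratio factor of -0.82 on the log2 scale against -0.26 to 0.36 in the other 14 counted samples, and its TNFSF11 level, 1.12 units, was the lowest of the 15. The sum of 6 fibroblast markers was 472 to 1087 units in PL and 1401 to 2632 in W2, and 5 of the 6 rose in W2. Among luminal markers 1 of 6 rose in W2 against PL, their sum being 791 to 1638 and 1326 to 2107 units, and KRT7 was listed at 0 in all 3 EL samples. Basal and myoepithelial markers were called in 0 of 5 cases (756 to 1889 and 1393 to 1676 units). Of the endothelial markers 2 of 4 rose (71.2 to 118 and 120 to 135 units), of the adipocyte markers 2 of 4 rose and 1 fell (254 to 391 and 502 to 619 units), and of the lymphocyte markers 2 of 5 rose (6.41 to 13.6 and 15.4 to 18.6 units). FABP4 made up most of the adipocyte sum, with a mean of 312 units in PL and 538 in W2, while LEP was 10.65 units in PL and 0.131 in W2. Of the macrophage markers 2 of 4 rose and 1 fell, and their sum ranged from 20.8 to 303 units within PL and from 41.1 to 49.6 in W2. CD14 made up most of that sum in PL (mean 180 units, 6.64 in W2). The means of CSF1R, CD163 and MRC1 were 3.53, 3.82 and 3.19 units in PL and 18.0, 16.2 and 4.53 in W2. The part of these markers in the differences of the axis was not tested, apart from the scaling by luminal keratins given above for TNFSF11.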

How the data were processed

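The authors sequenced TruSeq v2 libraries of mammary parenchyma. Per the study's methods they trimmed the reads with Trimmomatic, used HISAT2 for alignment to Sscrofa11.1 and StringTie for assembly and quantification. The deposited values are named FPKM by the authors, who kept transcripts of at least 0.5 in a stage, but they have the same total in each sample within a percent. The study lists the reads of each library, which were not used here, and the reads behind a single value are not known from these values. Whether strand was kept, and whether the removal of unwanted variation that the authors name was applied to these values, is not given in the sources used here.

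Reference transcripts were matched to genes by accession and summed. Assembled transcripts carry no gene name and were added to no gene of the axis. Levels were tested as log2(units + 0.5) with limma 3.58.1 in R 4.3.3, in 1 fit of the 5 stages with a mean trend, and p-values were adjusted by Benjamini-Hochberg over 26019 features. A fold on this scale understates the change of low genes. A call is an adjusted p below 0.05. Single comparisons also had exact two-sided permutation tests (scipy 1.17.1), and correlations had 100000 permutations each.

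Samples whose values differed by a median of under 5% over features of at least 10 units were called near-identical, which left, for W2 and for PL, replicates 2, 3 and 6, for EL 3, 4 and 6, for LG 1, 3 and 4 and for MG 1, 3 and 6. The study's methods name the sows of a stage as biological replicates, each with its own library. The median ratio was taken over 3522 genes of at least 10 units in every counted sample. The genes and lists were chosen with earlier results of these data known. The genes named from a list were at most 4 called genes per comparison with the largest difference, and the most alike genes were the 3 with the highest r. The alternatives covered pseudocount, filter, scaling, the samples counted, single samples left out, the replicate block and the transcript used. The code was tested on simulated data.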

Additional observations from a re-analysis of the deposited data

Results flagged for a closer look

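In each of 12 groups of 6 samples, on log2(units + 0.5), the gap between the lowest or highest sample and its neighbour was divided by the range of the group, and values above 0.625 were marked. Chance marks about 1 in 20 such groups. TNFRSF11A in PL replicate 6, at 3.86 units, stood apart from the other lactation samples (gap over range 0.667). WNT4 in MG replicate 6, at 0.454 units, stood apart from the other gestation samples (0.809). Both are single samples, and what set them apart was not tested.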

How the results depend on the processing

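The calls of TNFSF11 in W2 against PL, W2 against lactation and lactation against gestation held under every alternative but scaling to luminal keratins and, in the last comparison, the replicate block. Of the 5 genes, 2 were called in W2 against PL. The filter of 1 unit (which removes PGR), median ratio scaling, quantile normalization, the replicate block and the highest transcript each left 1, and keratin scaling left 0. In W2 against lactation the 2 became 1 under the same settings except the block, and 0 under keratin scaling. In lactation against gestation the 1 became 0 under keratin scaling or the block, 2 with the near-identical samples as 1 further sample, and 4 with all 6 samples per stage. With all 6 samples, 1 gene was called in LG against MG, 2 in EL against LG and 2 in PL against EL, and near-identical samples narrow the spread there. Leaving out 1 sample gave 1 to 3 calls in W2 against PL, 1 to 3 in W2 against lactation and 1 to 2 in lactation against gestation. The log2 ratio of TNFSF11 to TNFRSF11B passed with all 6 samples (-2.22, exact permutation p = 0.000706) and with the near-identical samples as 1 (-2.18, exact permutation p = 0.0190), and ranged from -2.87 to -1.61 with 1 sample left out.

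Same-numbered samples did not deviate together (median correlation -0.034 over 19 pairs, 4 of them above 0.1, against -0.046 over 71 other pairs), so the numbers do not pair the samples. Some samples of unlike number did. MG replicate 1 went with LG replicate 3 (r = 0.21) and EL replicate 4 (0.18), MG replicate 3 with LG replicate 4 (0.24), and MG replicate 6 with LG replicate 1 (0.20). The sets ran on into later stages. EL replicate 4 went with W2 replicate 6 (0.12), LG replicate 4 with EL replicate 3 (0.16) and W2 replicate 3 (0.12), and EL replicate 6 with W2 replicate 2 (0.13). With PL, MG replicate 1 and PL replicate 6 had 0.046, and LG replicate 4 and PL replicate 3 had 0.11. Such sets across stages were not modelled, and no test that follows them was run. The replicate block groups by number and does not follow these sets, and every other test took the samples as independent. With the replicate block TNFSF11 was -1.87 in lactation against gestation (limma adjusted p = 0.0509), PGR was not called in W2 against PL (limma adjusted p = 0.0573) or lactation (limma adjusted p = 0.108), and WNT4 was called in W2 against lactation (2.75, limma adjusted p = 0.0315).

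Direction turned for 49 values in 13 of 30 pairs of gene and comparison. None of the turned values passed, and 1 belonged to a called pair. Keratin scaling takes the same log2 value off every feature of a sample, so it shifts all differences of a comparison alike. It moved the median of all features from 0.68 to -0.060 in W2 minus PL and from 0.57 to -0.33 in W2 minus lactation. The turns with keratins include this shift, and the cause of the other turns was not tested. ESR1 in W2 minus PL became -0.032 with quantile normalization, -0.67 with keratins, -0.055 with all 6 samples and -0.019 with near-identical samples as 1. ESR1 in W2 minus lactation became -0.013 with the median ratio, -0.13 with quantiles, -0.89 with keratins, -0.073 with all 6, -0.053 with near-identical samples as 1 and -0.18 with the block. PGR in EL minus LG became 0.011, 0.15 and 0.56 with median ratio, quantiles and keratins, and in PL minus EL 0.034 with quantiles and 0.075 with all 6. With keratins PGR became 0.064 in lactation minus gestation and -0.24 in W2 minus lactation. TNFRSF11A in lactation minus gestation became 0.38, 0.33 and 0.46 with median ratio, quantiles and keratins, 0.018 with all 6 and 0.0089 with the block. In W2 minus lactation it became -0.34, -0.31 and -0.67 with those scalings and -0.52 with the highest transcript. WNT4 in PL minus EL became -0.085 with a pseudocount of 1, -0.27 with keratins, -0.26 with all 6 and -0.10 with near-identical samples as 1. With 1 sample left out, turned values lay in the ranges -0.81 to 1.03 (ESR1, LG minus MG), -0.0022 to 0.034 (ESR1, W2 minus lactation), -0.16 to 0.10 (PGR, EL minus LG), -0.50 to 0.51, -0.090 to 1.50, -0.24 to 0.56 and -0.36 to 0.44 (TNFRSF11A in LG minus MG, W2 minus PL, W2 minus lactation and lactation minus gestation), and -0.25 to 1.70 and -1.11 to 0.87 (WNT4 in LG minus MG and PL minus EL).

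Over all features, the share of calls that were lower moved from 83.2% to 51.7% in PL against EL, from 7.54% to 43.3% in W2 against PL, from 92.5% to 57.6% in lactation against gestation and from 5.77% to 41.7% in W2 against lactation with median ratio scaling, and the calls in these 4 comparisons went from 1203 to 1366, 8545 to 3404, 5420 to 1929 and 7366 to 1810. The scaling alternatives of the gene lists and of the likeness counts were chosen after seeing the data.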
